A study of Mus musculus with 4 samples.

Results

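The brains of newborn mice whose mothers had received titanium dioxide nanoparticles (TiO2-H) were compared with those of newborns whose mothers had received the vehicle (Sham), over all 4 arrays of the series, 2 in each group. The comparison asks whether the exposure of the mother left a shared change in the gene expression of the offspring's brain. Each array carried RNA pooled from whole brains of C57BL/6J offspring at postnatal day 1, from 2 offspring of each dam, with 5 dams in the Sham pools and 6 in the TiO2-H pools. Each group had 1 pool labelled male and 1 labelled female. The dams were given 25 µL intratracheally, either of the nanoparticle suspension (100 µg of TiO2-NP a mouse) or of the same suspension after the particles had been filtered out. The treatment protocol places the dosing at gestational day 10.5, whereas the sample titles give day 14. There were 11 dams in all, so the 2 pools of a group drew on the same dams. A pool averages its litters, so the values carry no spread between litters, and the 2 arrays of a group do not supply it either. In whole brain RNA fewer cells of a type and less RNA per cell cannot be told apart.

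A value was the log2 processed signal of a probe minus the log2 of its array's 75th percentile, and relative signals below are that same quantity as a percentage of the 75th percentile. Of 55681 probes, 29406 were well above background on all 4 arrays without a flag for an uneven or outlying spot, and they stood for 22303 genes or transcripts, each represented by its brightest probe. A current RefSeq symbol was found for 14636 of these. A gene was called separated upward when both of its TiO2-H values lay above both of its Sham values, and separated downward in the opposite case. The gap is the distance between the nearest values of the 2 groups.

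The quality measures of the arrays differed by little but ran with exposure, and the labels and the slide layout limit the arrays further. The level used for scaling was 795 to 810 on the Sham arrays and 867 to 871 on the TiO2-H arrays, and 56.2 to 56.9% and 59.4 to 61.2% of the spots, respectively, were well above background. Flagged spots made up 0.288 to 0.305% on Sham and 0.233 to 0.25% on TiO2-H. Kept probes spotted 10 times had a median standard deviation between spots of 0.066 to 0.067 on Sham and 0.062 to 0.064 on TiO2-H. The part of these differences in the results was not tested. All 4 arrays lay on 1 slide, the Sham arrays in one row of it and the TiO2-H arrays in the other, so slide row and exposure cannot be told apart. Of 10 spike-in probes, 5 were above background, and their TiO2-H minus Sham differences ran from -0.046 to 0.002. The median difference in 16 blocks of the array surface ran from -0.008 to 0.021. Sex-linked RNAs went against the labels within TiO2-H. The array labelled TiO2-H male had a signal of 347 for Xist, the RNA of the inactive X chromosome, and 6.4 for the Y-linked Eif2s3y, and the array labelled TiO2-H female had 5.4 and 4345. The arrays labelled Sham male and Sham female had 17.9 and 276 for Xist and 3519 and 419 for Eif2s3y. Each group therefore held 1 array with high Xist and 1 with low Xist, whichever way the labels are read. The array labelled Sham female also had a signal of 142 for the Y-linked Ddx3y, against 7.2 on the array labelled TiO2-H male. The high-Xist arrays of the groups were thus not matched in Y-linked signal.

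The newborn mouse brain is still being built. Neurons born in the weeks before birth extend axons along guidance cues, start to form synapses and make receptors for glutamate and GABA, while glia and blood vessels multiply around them. Genes for neuronal adhesion, guidance and synapses are among the longest of the genome. Those for ribosomes, proteasomes and the respiratory chain are short and give some of the most abundant mRNAs. Clock genes such as Per1 and Cry1 are driven by factors that bind the E-box sequence, and interferon-induced genes by factors that bind repeats of GAAA. For 3 of the clock genes and 3 of the interferon genes that were lower on both TiO2-H arrays, a stretch of 100 bases from the promoter is shown with these motifs in capitals. The stretches begin 100 (Ciart), 107 (Cry1), 200 (Bhlhe41), 167 (Ifit3), 169 (H2-T23) and 111 (Isg15) bases before the transcription start. They are RefSeq promoter sequences of the GRCm38.p6 build, read 5′ to 3′ on the strand of the gene.

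Ciart, chr3:95882229-95882328, minus strand: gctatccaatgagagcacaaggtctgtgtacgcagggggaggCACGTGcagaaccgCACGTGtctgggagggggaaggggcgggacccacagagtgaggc
Cry1, chr10:85185062-85185161, minus strand: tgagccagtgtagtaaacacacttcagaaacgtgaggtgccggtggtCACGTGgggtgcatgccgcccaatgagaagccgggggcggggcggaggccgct
Bhlhe41, chr6:145865521-145865620, minus strand: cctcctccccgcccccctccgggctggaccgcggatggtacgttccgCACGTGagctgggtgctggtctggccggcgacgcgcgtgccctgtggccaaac
Ifit3, chr19:34583362-34583461, plus strand: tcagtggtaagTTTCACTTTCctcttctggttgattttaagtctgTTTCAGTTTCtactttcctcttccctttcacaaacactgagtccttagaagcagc
H2-T23, chr17:36032771-36032870, minus strand: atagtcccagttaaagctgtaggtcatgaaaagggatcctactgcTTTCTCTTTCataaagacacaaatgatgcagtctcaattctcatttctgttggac
Isg15, chr4:156200830-156200929, minus strand: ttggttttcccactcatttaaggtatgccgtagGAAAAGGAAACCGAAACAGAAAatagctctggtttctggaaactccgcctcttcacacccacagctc

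Many genes differed by a little, few by much. Of the 22303 genes, 6405 (28.7%) were separated upward on TiO2-H and 5923 (26.6%) downward. Most of the separated genes (74.4%) differed by less than 0.2 on the log2 scale, and 144 upward and 76 downward differed by at least 1.5-fold. The median difference over all genes was 0.003. Differences between the groups were larger than those within them. Both arrays of a group came from the same dams, however, so a difference between the 2 sets of litters cannot be told apart from exposure. The median absolute difference was 0.067 between the Sham arrays and 0.062 between the TiO2-H arrays, and it was 0.098 and 0.10 for TiO2-H against Sham within the labelled sexes and 0.094 and 0.107 across them. Where a gene had a second probe, 49.4% of the second probes of upward genes were separated upward as well and 10.6% downward. For downward genes 46.1% were again downward and 12.7% upward. Where the brightest probe was not separated, 23.1% of the second probes were upward and 22.4% downward.

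No gene passed an adjusted p of 0.05 in limma's moderated test over all genes (0%, smallest adjusted p 0.212). At an unadjusted p under 0.05 there were 2566 higher genes (11.5%) and 1578 lower (7.08%). When only the 11151 genes brighter than the median gene were tested, 801 passed an adjusted p of 0.05, namely 477 higher (4.28%) and 324 lower (2.91%). The count depended on how sex was treated: with sex as labelled as a block 894 were higher and 734 lower, and with sex crossed within TiO2-H, as Xist and Eif2s3y had it, 63 and 5. It also rested on all 4 arrays. Without the array labelled TiO2-H female 19 higher and 0 lower genes were left, without that labelled TiO2-H male 125 and 27, without that labelled Sham male 107 and 36, and without that labelled Sham female 365 and 172. An exact permutation test of 2 against 2 arrays cannot go below p = 0.333, so single genes and lists are described below by their values on the 4 arrays. The word bright marks adjusted p-values from the limma test of the brighter genes without a block for sex. With sex crossed within TiO2-H, at most 63 higher and 5 lower genes could keep such a call. The p-values quoted below do not show which genes these were.

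Signal level went with direction. In the dimmest of 10 equal groups of genes by mean value, 26.8% were separated upward and 14.5% downward, with a median difference of 0.060. In the brightest group 17.4% were upward and 46.8% downward, with a median of -0.037. The share of downward genes grew at each step from the second group to the brightest. The lean of the brightest genes was present in both labelled pairs, at -0.053 in the pair labelled male and -0.022 in the pair labelled female. Dividing an array by 1 level moves all of its genes alike, whereas quantile normalization evens out differences that run with the level. After it the medians of the 10 groups lay between -0.013 and 0.004, and the brightest genes were 26.8% upward and 31.9% downward. Of the genes separated upward, 5668 were upward after quantile normalization too, and of those separated downward 5495.

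**Figure D1:**
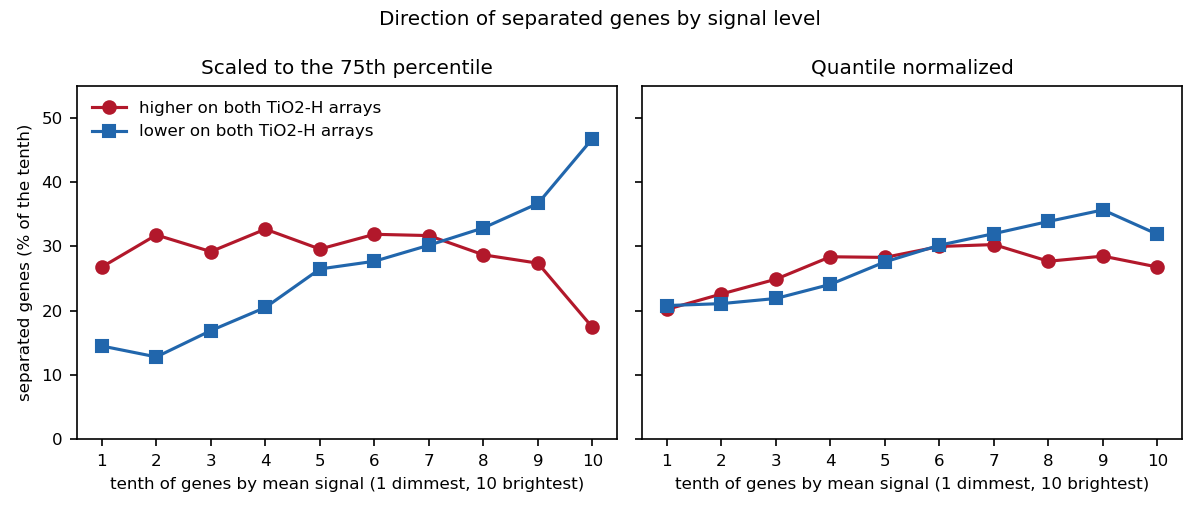
Share of genes separated upward (circles) and downward (squares) on TiO2-H in 10 equal groups of genes ordered by mean signal, with values scaled to each array's 75th percentile (left) and after quantile normalization (right). On the left the downward share climbs to 46.8% in the brightest group, and on the right it ends at 31.9%.

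The length of the gene went with direction before and after quantile normalization. Genes with a symbol were ordered by their genomic span, from transcription start to end with introns, and divided into 10 equal groups of 1463 or 1464 genes. In the shortest group (median span 2.29 kb) 19.3% were separated upward and 31.1% downward, with a median difference of -0.021. In the longest group (median 222 kb) 793 genes, or 54.2%, were upward and 154, or 10.5%, downward, with a median of 0.090. The median did not decrease at any step between them. It was 0.088 in the pair labelled male and 0.090 in the pair labelled female, whereas within the groups the longest genes differed by 0.013 between the Sham arrays and 0.014 between the TiO2-H arrays. Quantile normalization left 52.5% upward and 11.3% downward. Among the brighter genes, 123 of the longest group (16% of those tested) were higher at an adjusted limma p under 0.05 and 6 were lower, against 13 higher and 25 lower in the shortest group.

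The upward lean of the longest genes was not confined to neuronal genes or to one level of signal. Of the longest genes, 1144 were in none of the 62 gene lists used below, and 51.5% of these were upward and 11.5% downward, with a median of 0.083. Those in a list of neurons, brain wiring or brain regions stood at 65.1% upward and 6.11% downward, with a median of 0.131. The median of the longest genes was 0.102 among the dimmer genes and 0.079 among the brighter ones. In the shortest group the dimmer genes did not lean (22.0% upward, 22.2% downward, median 0.0). The brighter ones did, with 16.2% upward, 41.0% downward and a median of -0.03. After quantile normalization these medians were -0.022 and -0.018.

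**Figure D2:**
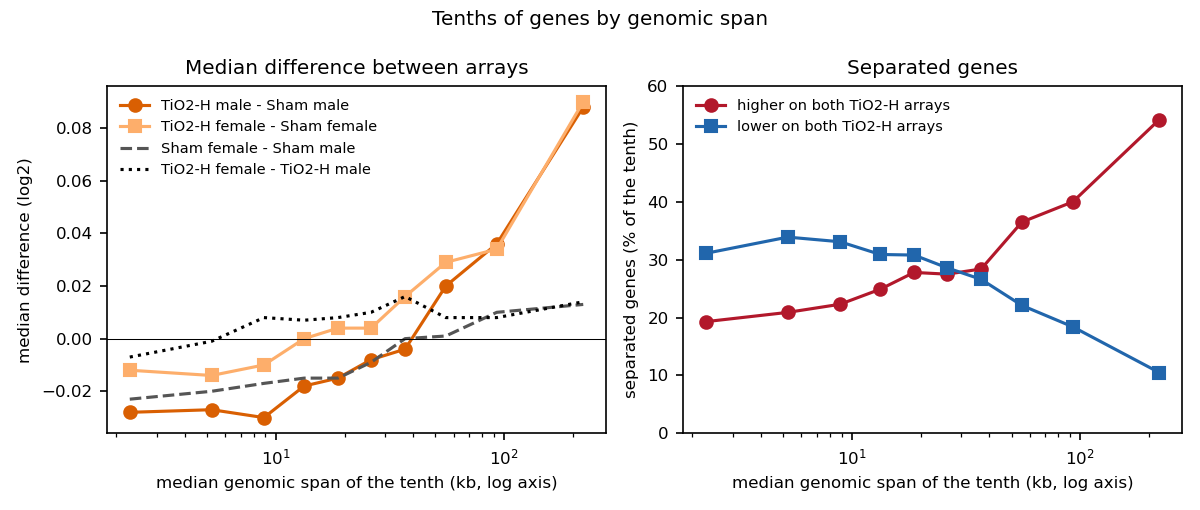
Median log2 difference (left) and share of separated genes (right) in 10 equal groups of genes ordered by genomic span, plotted at the median span of each group on a log axis. Both TiO2-H minus Sham pairs climb to 0.088 and 0.090 in the longest genes, while the differences within Sham and within TiO2-H end at 0.013 and 0.014.

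The gene lists are given as counts of separated members, to be read against 28.7% upward and 26.6% downward over all genes, and as the median difference, to be read against 0.003. Of the 62 lists, 41 had per-array medians that did not overlap between the groups, 21 higher and 20 lower on TiO2-H. Of single genes, 55.3% were separated. The 41 include lists with almost no shift from all genes, such as apoptosis (-0.004), heat shock and folding (0.001) and histone modifying enzymes (0.003). Once the median of all genes had been taken off, 52 lists kept 1 sign under all 5 scalings. No scaling and the median of kept probes leave that shift the same by construction, so only quantile normalization and normexp background correction could turn a sign.

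Glutamate receptors had a median of 0.133 (26 measured, 15 upward, 1 downward), the highest of the lists at this scaling. Their shift from all genes was 0.130, and it was 0.081 without the array labelled TiO2-H female and 0.074 with normexp background correction, where synaptic vesicle genes (0.083) and inhibitory transmission (0.075) stood higher. Grin2b, the NMDA receptor subunit that dominates before and around birth, had relative signals of 95.9 and 94.9% on the Sham arrays and 147 and 147% on the TiO2-H arrays. Both TiO2-H arrays lay above both Sham arrays, which differed little, and the difference was 0.63 ± 0.04 (SE), a fold change of 1.54 (bright adjusted p = 0.0067, limma). The second probe of Grin2b went the same way, at 76.1 and 87.6% on Sham against 101 and 111% on TiO2-H. The metabotropic receptor Grm7 (0.33 ± 0.06, bright adjusted p = 0.030, limma) was also higher on both TiO2-H arrays. The single downward member was Grina, the brightest of the list, which is named after the receptor but is not one of its subunits (996 and 1018% on Sham, 880 and 882% on TiO2-H). Its difference was -0.19 ± 0.04 (bright adjusted p = 0.040, limma). The receptor genes were long, with a median span of 298 kb, and the medians of their length groups averaged 0.061.

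Inhibitory transmission leaned the same way with a smaller median of 0.054 (28 measured, 13 upward, 2 downward). Its shift from all genes, 0.051, was 0.024 without the array labelled TiO2-H female and 0.081 without that labelled TiO2-H male. The GABA-A receptor subunits Gabrb1 (0.31 ± 0.04, bright adjusted p = 0.023, limma) and Gabrb2 (0.21 ± 0.04) had the widest gaps upward. Slc32a1, the vesicular GABA transporter and the brightest member, stood at 3910 and 3933% on Sham against 4159 and 4248% on TiO2-H, although its dimmer probe was separated downward at -0.10. Gabrr2 (-0.18 ± 0.08) and the GABA-B receptor Gabbr1 (-0.06 ± 0.04) were the downward members, the latter with a second probe upward at 0.064.

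More synaptic genes were separated upward than downward. Of 69 genes for synaptic vesicles and release, 36 were upward and 10 downward, with a median of 0.059. Their shift from all genes, 0.056, was 0.023 without the array labelled TiO2-H female. The priming factors Unc13b (0.31 ± 0.05, bright adjusted p = 0.023, limma) and Unc13c (0.28 ± 0.05) and the active zone scaffold Pclo (0.23 ± 0.05, bright adjusted p = 0.036, limma) had the widest gaps, and 2 of the 3 other Pclo probes were separated upward too. The brightest member, the vesicle GTPase Rab3a, was lower on both TiO2-H arrays (8472 and 8046% against 7417 and 7347%). Of 59 genes for the postsynaptic scaffold and adhesion, 31 were upward and 8 downward, with a median of 0.064. They included Lrfn5 (0.45 ± 0.05) and Tanc2 (0.48 ± 0.09), and Kalrn, an exchange factor of dendritic spines, whose 4 probes were all separated upward (0.31, 0.25, 0.23 and 0.16). Shank2, another scaffold, was downward at a signal near the detection limit (-0.46 ± 0.16).

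Axon guidance genes had a median of 0.066 (78 measured, 35 upward, 11 downward), and they held the gene with the widest gap of all. Dcc, the netrin receptor that guides commissural axons, had relative signals of 488 and 625% on Sham and 1169 and 1346% on TiO2-H. Both TiO2-H values were above both Sham values by at least 0.90 on the log2 scale, and the fold change was 2.27 (1.18 ± 0.15, bright adjusted p = 0.017, limma). Its second kept probe was dim, at 15.5 and 13% against 16.1 and 16.4%, and differed by 0.20. Epha10 (0.47 ± 0.07) and Sema3e (0.37 ± 0.06) followed among dim members. Sema4c had the widest gap downward (-0.18 ± 0.04, bright adjusted p = 0.043, limma), and Cntn1, the brightest member, stood at 2726 and 2816% against 2957 and 3277%. The median span of this list was 64.9 kb, and the medians of its length groups averaged 0.040. Its shift from all genes, 0.063, was 0.036 without the array labelled TiO2-H female.

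Adhesion proteins and other neuronal lists followed. Protocadherins and cadherins had a median of 0.081 (60 measured, 26 upward, 6 downward), led by Pcdhb3 (0.26 ± 0.06), Pcdh17 (0.24 ± 0.05, bright adjusted p = 0.032, limma) and Celsr2 (0.22 ± 0.05). The shift of the list, 0.078, was 0.044 without the array labelled Sham male and 0.139 without that labelled Sham female. Cdh20 was counted downward through 1 Sham array only, with 134% on the array labelled Sham male and 24.7 to 27.0% on the other 3. Neurotrophins and growth factors had 27 of 51 upward and 6 downward, with a median of 0.056, among them the receptor Cntfr (0.43 ± 0.11) and the growth factors Igf1 (0.22 ± 0.05) and Ptn (0.18 ± 0.05). One of the other 3 probes of Igf1 was separated, also upward. Striatal markers had 15 of 28 upward and 7 downward (median 0.053), with the forkhead factors Foxp2 (0.20 ± 0.05) and Foxp1 (0.16 ± 0.05) and the signalling regulators Rgs9 (0.16 ± 0.04) and Pde10a (0.19 ± 0.05). Pdyn, the prodynorphin gene, had the widest gap downward there, and the shift of the list, 0.050, was 0.079 without the array labelled TiO2-H female. Potassium channels (median 0.038), pan-neuronal and cytoskeletal genes (0.036), and neuronal migration genes (0.034) were nearer to the background, with 29 of 71, 25 of 57 and 16 of 34 upward.

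Noncoding RNAs known from brain had a median of 0.097 (22 measured, 13 upward, 6 downward), and their median span was 11.8 kb. Malat1, an abundant nuclear RNA, had relative signals of 65.4 and 59.1% on Sham and 85.3 and 88.3% on TiO2-H. Both TiO2-H arrays lay above both Sham arrays by at least 0.38 (0.48 ± 0.07, a fold change of 1.40). Dlx6os1, from the Dlx locus of interneurons (0.35 ± 0.06), and Kcnq1ot1, an imprinted antisense RNA (0.42 ± 0.12), had the next gaps. The downward members with the widest gaps were the spliced host genes of small nucleolar RNAs Snhg12 (-0.10 ± 0.04), Snhg3 and Snhg1. Among members brighter than the median gene, the median of the list relative to all genes was -0.011.

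Genes of vessels and extracellular matrix leaned upward, although 42.9% of the first list below and 45.9% of the second were separated that way. Endothelium and mural cells had a median of 0.063 (63 measured, 27 upward, 9 downward), with the sialomucin Emcn at 7.66 and 7.65% on Sham against 9.35 and 9.38% on TiO2-H, the pericyte channel subunit Abcc9 (0.38 ± 0.08) and the amino acid transporter Slc38a5 (0.42 ± 0.08, bright adjusted p = 0.030, limma). Itm2a, Mcam and Mfsd2a were the downward members with the widest gaps. Collagens, laminins and genes of the meninges had a median of 0.074 (85 measured, 39 upward, 9 downward), including the proteoglycan Vcan (195 and 195% against 238 and 236%, bright adjusted p = 0.023, limma). Col14a1 differed by 0.89 ± 0.38 through a high value on the array labelled TiO2-H female, and its other probe was not separated. Ptgds, the brightest of the list, was lower (-0.10 ± 0.05).

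**Figure D3:**
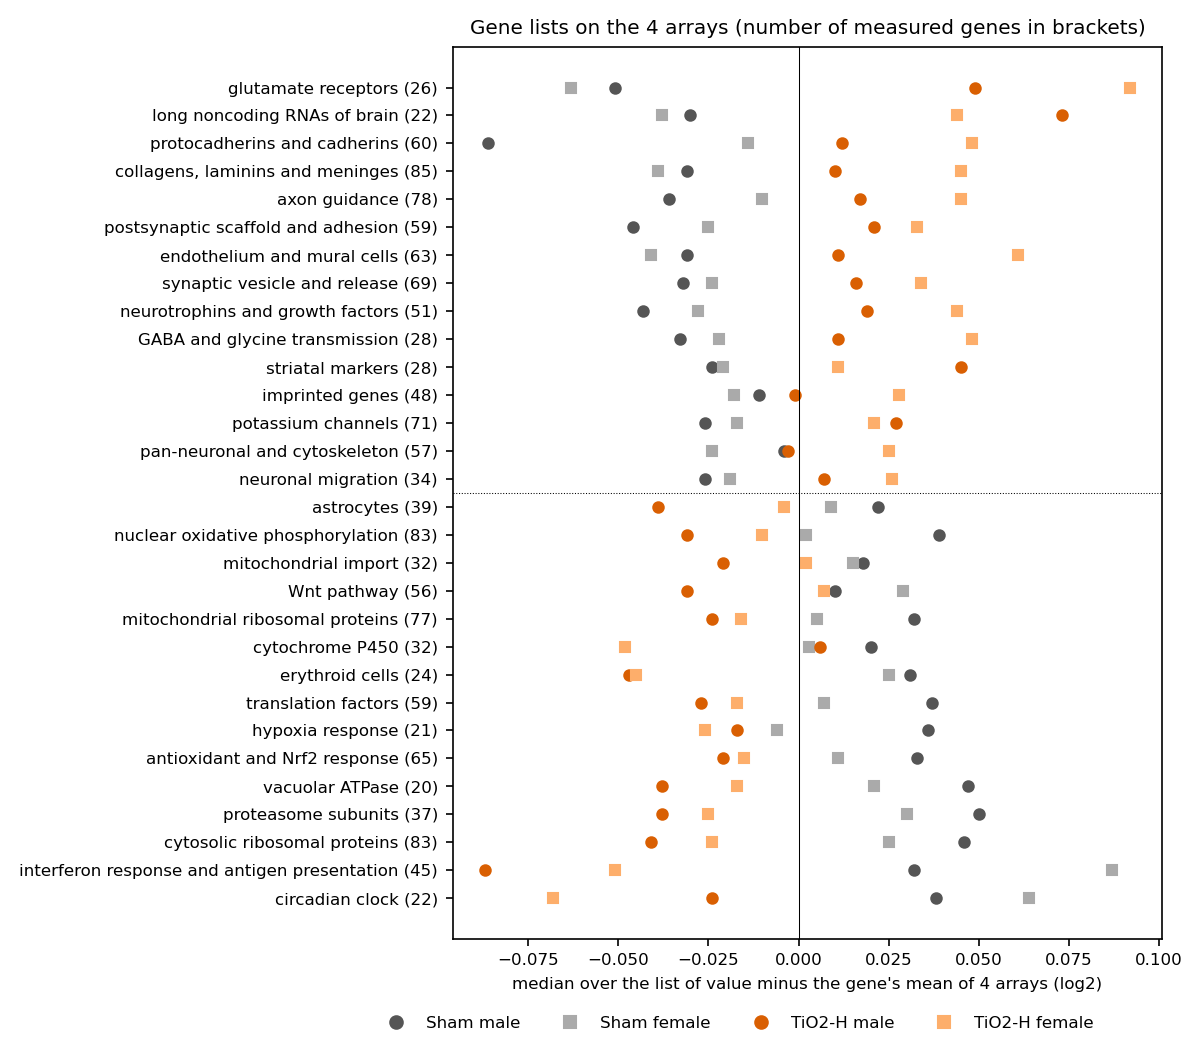
Per-array medians (log2) of the 15 gene lists with the highest and the 15 with the lowest shift from all genes, after the mean of the 4 arrays was subtracted from each gene. Grey symbols are Sham and orange symbols TiO2-H, and circles and squares are the arrays labelled male and female. In glutamate receptors both TiO2-H arrays lie to the right of both Sham arrays, and in the interferon and clock lists to the left.

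The clock genes had the lowest median, -0.121 (22 measured, 2 upward, 12 downward). Cry1, a repressor of the clock, had relative signals of 35.4 and 31.7% on Sham and 26.0 and 24.9% on TiO2-H, a difference of -0.40 ± 0.07. Ciart, another repressor, stood at 10.3 and 10.7% against 8.43 and 8.22% (-0.34 ± 0.05). Per2 stood at 14.6 and 15% against 12.7 and 10.4% (-0.37 ± 0.11). In all 3 the TiO2-H arrays lay below both Sham arrays, at low signals. Rorb, a nuclear receptor that is also a marker of cortical layer neurons, was upward (0.19 ± 0.04, bright adjusted p = 0.041, limma), as was Fbxl21, and the brightest member, the kinase Csnk1d, was not separated (-0.03 ± 0.05). The E-box CACGTG, searched on both strands over 250 bases before the start, was present in 5 of the 18 clock genes that had a promoter sequence (27.8%) and in 9.47% of all measured genes, or 6.02% of all promoters. These 5, Bhlhe41, Ciart, Cry1, Per1 and Tef, were all separated downward, with a median of -0.338, and the 13 without it had 2 upward and 5 downward and a median of -0.053. All measured genes with the E-box had 323 upward and 321 downward of 1101. Ciart carried 2 copies in the stretch shown above. The hours at which the pups were dissected are not given in the sources used here.

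Interferon-induced and antigen presentation genes had a median of -0.094 (45 measured, 6 upward, 25 downward). Eif2ak2, the kinase PKR, had relative signals of 14.3 and 18.6% on Sham and 10.7 and 9.70% on TiO2-H (-0.68 ± 0.15). Usp18, which removes the ubiquitin-like ISG15 protein, stood at 12.0 and 11.8% against 8.89 and 8.58% (-0.45 ± 0.04). Ifit3, an interferon-induced antiviral protein, stood at 15.8 and 13.7% against 10.9 and 9.06% (-0.57 ± 0.13). These were dim genes whose TiO2-H values all lay below the Sham values, and the median level of the list was -1.72 on the log2 scale relative to the 75th percentile. Among brighter members, the nonclassical MHC gene H2-T23 stood at 229 and 229% against 194 and 205% (bright adjusted p = 0.044, limma). Psmb9, a subunit of the immunoproteasome, was upward (0.31 ± 0.05), with Parp14 (0.38 ± 0.13) and Irf3 (0.14 ± 0.04), and Psmb10, the brightest member, was not separated. A pair of GAAA with any 2 bases between them, the core of the interferon-stimulated response element, was found on either strand before 11 of the 36 members with a promoter sequence (30.6%), against 3.11% of all measured genes and 2.98% of all promoters. Of these 11, 8 were downward and none upward, with a median of -0.142, and the 25 without it had 13 downward, 4 upward and a median of -0.149. All measured genes with the motif were 109 upward and 103 downward of 362. In the Isg15 stretch the capitals hold 3 overlapping matches.

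**Figure D4:**
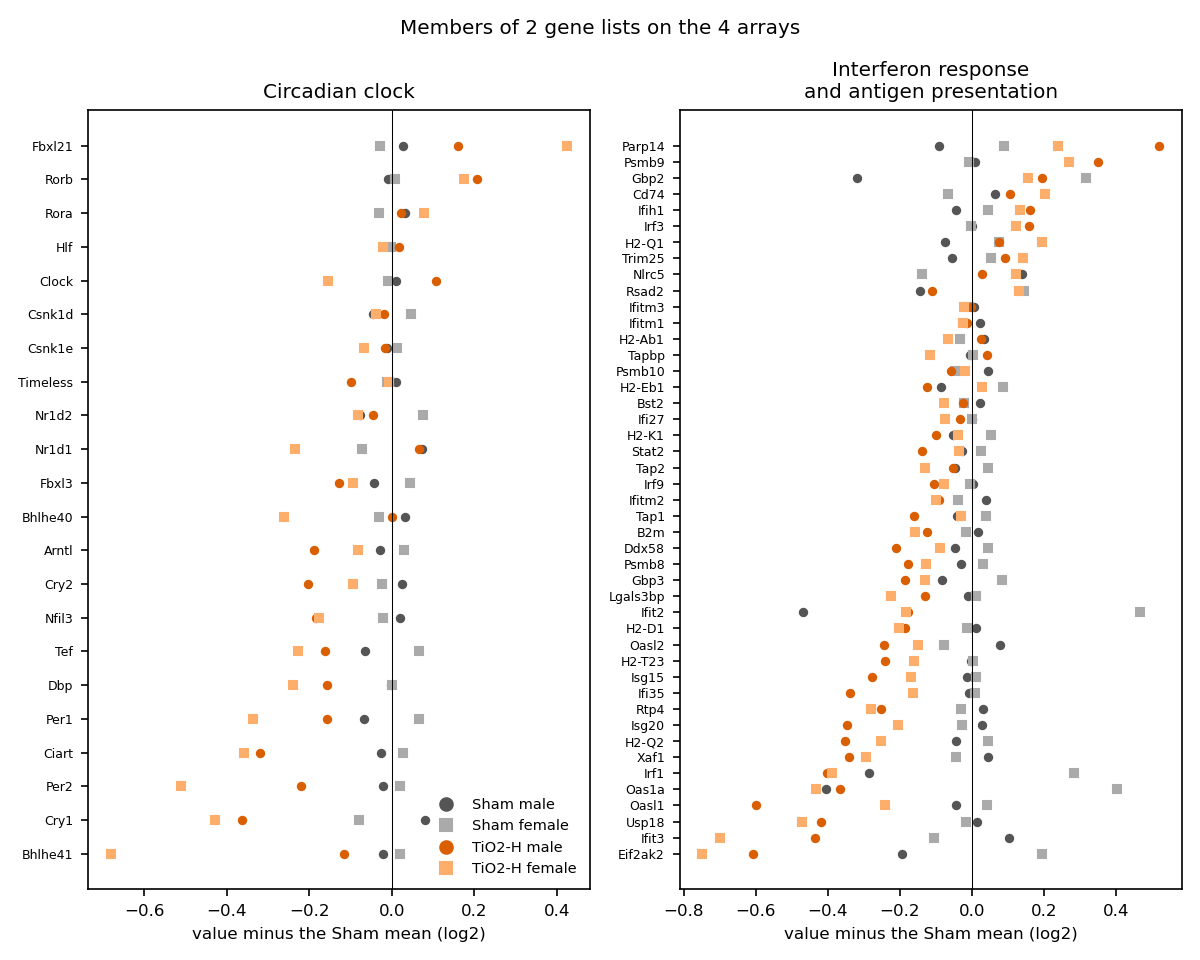
Log2 value of each measured member of the clock and interferon lists on each array, minus the mean of the Sham arrays, with genes ordered by difference. The TiO2-H arrays (orange) lie left of both Sham arrays for 12 of 22 clock genes and 25 of 45 interferon genes.

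Cytosolic ribosomal proteins were the most one-sided list. Of 83 measured, 65 (78.3%) were downward and 1 upward, with a median of -0.072 and medians of -0.094 and -0.052 in the pairs labelled male and female. The widest gaps were those of Rps27l (1489 and 1439% against 1285 and 1293%, -0.18 ± 0.04, bright adjusted p = 0.044, limma), Rps3 (-0.16 ± 0.04, bright adjusted p = 0.049, limma) and Rps27 (-0.15 ± 0.04). Rpl23 was the upward member (0.05 ± 0.05), and Rps14, the brightest, differed by -0.05 ± 0.04. These genes are also among the brightest and shortest of the array, with a median span of 3.14 kb. Quantile normalization left 37 downward and 7 upward and a shift of -0.021 from all genes, against -0.075 before. Many ribosomal genes have near-identical pseudogene copies, so a probe can collect signal from more than 1 of them.

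Other highly expressed housekeeping genes leaned the same way. Proteasome subunits had 24 of 37 downward and 2 upward (median -0.067), led by Psmd12 (-0.18 ± 0.04, bright adjusted p = 0.044, limma), Psmd4 and Psmb2. Nuclear genes of oxidative phosphorylation had 36 of 83 downward and 3 upward (median -0.039), led by Uqcrc1 of complex III (1667 and 1603% against 1437 and 1404%, bright adjusted p = 0.042, limma). That list stood at -0.078 in the pair labelled male and -0.010 in the pair labelled female. Across the labels it stood at -0.035 (TiO2-H male minus Sham female) and -0.048 (TiO2-H female minus Sham male). Its shift from all genes, -0.042, was -0.003 after quantile normalization and -0.027 without the array labelled TiO2-H male. Vacuolar ATPase subunits had 12 of 20 downward and 2 upward (median -0.067), with Atp6v1b2 (-0.14 ± 0.04) downward and Atp6v0a1 (0.13 ± 0.04) upward. Mitochondrial ribosomal proteins had 37 of 77 downward and 13 upward (median -0.042), with a shift of -0.045 that was -0.028 without the array labelled Sham male. Translation factors had 29 of 59 downward and 14 upward (median -0.049), yet the initiation factors Eif2s1 (0.21 ± 0.04, bright adjusted p = 0.035, limma) and Eif3a (0.17 ± 0.04, bright adjusted p = 0.048, limma) were higher. Glycolysis lay near the background, with 6 upward and 5 downward of 21 (median 0.021).

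More oxidant defence and hypoxia genes were separated downward than upward. Antioxidant and Nrf2 genes had a median of -0.054 (65 measured, 28 downward, 10 upward). Nqo1, a classical Nrf2 target, stood at 25.2 and 25.9% on Sham against 21.3 and 22.9% on TiO2-H (-0.21 ± 0.06), and Gstm4 differed by -0.22 ± 0.06. Abcc1 (0.13 ± 0.04), Srxn1 (0.12 ± 0.04) and Gsr (0.11 ± 0.05) were upward. Hypoxia-induced genes had 12 of 21 downward and 3 upward (median -0.050), with Car9 (-0.44 ± 0.13) at the widest gap. Metal handling genes (16 of 45 downward, 8 upward), cytokine, TNF and NF-kappaB genes (29 of 74 downward, 15 upward), immediate early genes (16 of 45 downward, 13 upward) and heat shock and folding genes (25 of 97 downward, 31 upward) had medians of -0.021, -0.019, -0.031 and 0.004.

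Globins were lower on both TiO2-H arrays. Hbb-bt, a beta globin gene, had relative signals of 4407 and 4367% on Sham and 3684 and 3602% on TiO2-H (-0.27 ± 0.04, bright adjusted p = 0.027, limma). Hba-a1, an alpha globin gene, stood at 6128 and 5893% against 5044 and 5072% (-0.25 ± 0.04, bright adjusted p = 0.030, limma), and Hbb-b2 differed by -0.23 ± 0.05. The brightest globin probe, Hba-a2, differed by -0.14 ± 0.07. Both TiO2-H arrays lay below both Sham arrays for these 4 probes, which can also bind mRNA of near-identical globin copies. Over the list 12 of 24 were downward and 4 upward (median -0.044). Its shift from all genes, -0.047, was -0.086 without the array labelled TiO2-H male, -0.074 without that labelled Sham male, and -0.081 among brighter genes. Slc25a37, the mitochondrial iron importer (0.22 ± 0.05), and the erythropoietin receptor Epor (0.14 ± 0.04) were upward.

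Of the other lists, imprinted genes (22 of 48 upward, 11 downward), sodium and calcium channels (13 of 33 upward, 4 downward), neural progenitors (19 of 43 upward, 8 downward), cortical factors (16 of 37 upward, 7 downward) and the oligodendrocyte lineage (14 of 34 upward, 6 downward) had medians of 0.043, 0.024, 0.026, 0.026 and 0.029. The Wnt pathway (22 of 56 downward, 13 upward), mitochondrial import (15 of 32 downward, 6 upward), astrocytes (15 of 39 downward, 8 upward) and cerebellar markers (13 of 30 downward, 8 upward) had medians of -0.041, -0.040, -0.036 and -0.031. Cell cycle genes (29 of 97 upward, 23 downward), zinc finger genes (117 of 347 upward, 93 downward) and splicing factors (24 each way of 81) lay near the background, with medians of 0.018, 0.016 and -0.006. Astrocytes stood at -0.086 in the pair labelled male and 0.001 in the pair labelled female. Across the labels they stood at -0.049 (TiO2-H male minus Sham female) and -0.006 (TiO2-H female minus Sham male).

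Markers of cell types were present as a whole brain would have them. The summed level of 6 neuronal markers, in multiples of the 75th percentile, was 354 to 359 on Sham and 354 to 371 on TiO2-H, and that of 6 endothelial markers was 21.7 to 22.8 and 22.1 to 22.8. Such a sum follows its brightest members. The median difference was 0.137 for the neuronal markers and 0.145 for the endothelial ones, each with 3 upward and 1 downward. Radial glia and astrocyte markers summed to at most 125 on Sham and 130 to 132 on TiO2-H, oligodendrocyte lineage markers to 21.2 and to 22.7 to 23.5, microglial markers to 16.6 to 17.2 and 17.5 to 17.8, and meningeal markers to 22.6 to 22.8 and 24.0 to 24.6. Choroid plexus markers summed to 91.4 to 94.1 on Sham and 89.4 to 90.8 on TiO2-H, with a median difference of -0.002 (3 upward, 1 downward). The 3 erythroid markers measured summed to 60.1 to 62.6 on Sham and 51.6 to 51.9 on TiO2-H. Nearly all of this sum is Hba-a1, whose signals are given above, so it adds little to them. Of 6 pituitary markers only Pomc was measured, with overlapping groups. Of the 4 liver markers Afp and Serpina1a were measured, at low signals and separated downward, with sums of 0.139 to 0.142 on Sham and 0.10 to 0.105 on TiO2-H, while Alb and Apoa1 did not pass the background filter. Muscle, cartilage and skin markers summed to 2.19 to 2.47 and 2.20 to 2.36. The part of a different cellular makeup in the list medians was not tested.

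Single genes with the widest gaps were mostly dim, and several rested on 1 array. After Dcc, the upward genes in order were Rhox8, Celrr, Gm11992, Faap24, Grin2b, Ackr2, Mars2, Olfr173 and Dnah5. Rhox8, a homeobox gene known from the reproductive tract, had 319 and 464% on Sham and 822 and 943% on TiO2-H (1.20 ± 0.21, bright adjusted p = 0.024, limma), but its second probe did not differ (-0.02). Faap24, of the Fanconi anaemia core complex, stood at 26.8 and 26.6% against 50.6 and 42.4% (0.79 ± 0.10), and Ackr2, a chemokine scavenger receptor, at 12.8 and 10.9% against 19.3 and 33.0%. Gm11992 and Mars2 had 38.3 and 40.4% on the array labelled TiO2-H male but 10.3 and 10.7% on the other TiO2-H array, against 6.09 to 7.25% on Sham.

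The downward genes in order of gap were Runx3, Itgav, Accsl, Popdc2, Dipk1c, Rffl, Serpina1a, Fabp2, Gpr84 and Chek1. Runx3, a transcription factor of sensory neurons and lymphocytes, had 17.3 and 14.8% on Sham and 8.30 and 7.84% on TiO2-H, a fold change of 0.505 (-0.99 ± 0.10). Itgav, the integrin alpha V subunit, stood at 28.4 and 32.4% against 16 and 17.6% (-0.85 ± 0.09), and its dimmer probe overlapped between the groups (-0.42). Chek1, a kinase of the DNA damage checkpoint, stood at 8.08 and 6.37% against 4.76 and 4.16%. Rffl had 137% on the array labelled Sham male but 7.29 and 4.80% on the TiO2-H arrays, and a far lower signal on the other Sham array too, and Gpr84 36.1% on that array and 6.81 to 9.48% on the others.

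**Figure D5:**
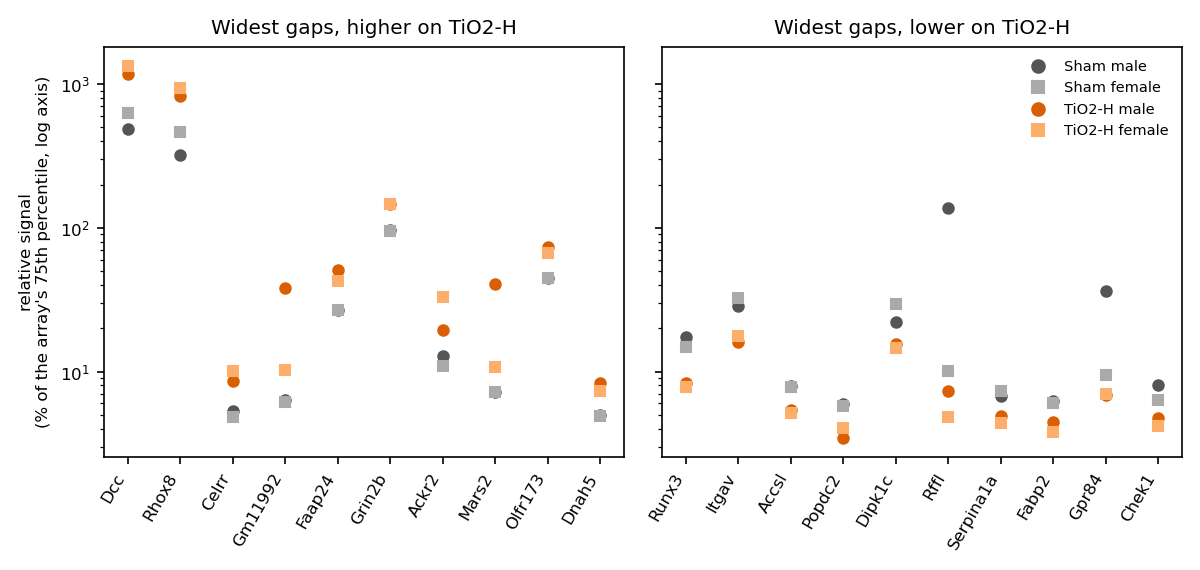
Relative signal (percentage of the array's 75th percentile, log axis) on each array for the 10 genes with the widest gap in each direction. Dcc stands at 488 and 625% on Sham and 1169 and 1346% on TiO2-H, whereas Rffl and Gpr84 stand out through the array labelled Sham male.

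The brightest genes separated by at least 0.1 differed by little. Gla, Hmgcs1 (an enzyme of cholesterol synthesis) and Proser3 were upward by 0.11 ± 0.04, 0.23 ± 0.07 and 0.25 ± 0.05, the last with a bright adjusted p of 0.034 in limma. Rpl36 and Rps27 were the named downward genes among the 5 brightest, at -0.12 ± 0.04 and -0.15 ± 0.04.

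Genes that the study's methods follow by RT-PCR were spread over both directions. Traf2, an adaptor of TNF receptors, had 408 and 407% on Sham and 348 and 367% on TiO2-H (-0.19 ± 0.05, bright adjusted p = 0.048, limma). Its dimmer probe stood further apart, at 20.9 and 20.7% against 7.46 and 7.71%, a difference of -1.45. Tet1, which oxidises 5-methylcytosine, was upward at 236 and 249% against 295 and 271% (0.22 ± 0.07), and its second probe was upward as well. The DNA methyltransferase Dnmt3a (0.10 ± 0.04) and the progenitor factor Sox2 (0.05 ± 0.04) were separated upward, as were Dnmt1 (0.09 ± 0.06) and Tet3 (0.09 ± 0.05). Tet2 (-0.10 ± 0.09), the brightest Dnmt3b probe (-0.03 ± 0.06) and the brightest Gapdh probe (0.02 ± 0.05) were not separated, while 5 of the 6 other Gapdh probes were separated downward (-0.074 to -0.181) and another Dnmt3b probe was separated upward at 0.21.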

How the data were processed

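Per the file headers, one-colour Cy3 arrays (SurePrint G3 Mouse GE 8x60K) had been read by the authors with Agilent Feature Extraction 10.10.1.1, which subtracts background within an array. The deposited processed signal is an intensity, not scaled between arrays, and the deposited series table held the same values. The software's 0 or 1 flags were used for filtering. Here log2 values were scaled to each array's 75th percentile and spots of a probe averaged, after which 2 TiO2-H arrays were compared with 2 Sham arrays by limma 3.58.1 (lmFit and eBayes, Benjamini-Hochberg), tested on simulated data. Since each array was 1 pool and the pools of a group shared their dams, p-values measure only the spread between arrays, not that between litters. The small number of arrays sets the precision. Probes were named through RefSeq accessions (GRCm38.p6). The comparison, the gene lists and the rule for named genes were chosen with earlier results of these data known, and gene span, the motifs and the alternatives without a planned setting were chosen after seeing the data. Named were the 10 widest gaps each way among RefSeq transcripts, the brightest 5 each way with a gap of at least 0.1 (those without a gene symbol are left out), up to 3 members each way and the brightest of a described list, and the genes of the RT-PCR methods. Per1, Tef, Bhlhe41, H2-T23 and Isg15 were named after their values were seen, for their motifs. Patterns in the lists that caught unrelated genes through synonyms were tightened. A few genes that the rule names are not reported here.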

Additional observations from a re-analysis of the deposited data

Results flagged for a closer look

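Probes outside the filter leaned to one group. Probes well above background on both TiO2-H arrays and on neither Sham array numbered 996, against 48 in the opposite case. Over all probes well above background on an array, the signal had its 1st percentile at 37.1 and 38.6 for Sham and at 35.1 and 28.2 for TiO2-H. The part of this in the count was not tested.

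Neuropeptides and interneuron markers went in opposite directions in the labelled pairs, with a median TiO2-H minus Sham difference of -0.033 in the pair labelled male and 0.041 in that labelled female. The difference between the pairs was not tested, and the sex labels of the TiO2-H arrays are the ones that Xist and Eif2s3y contradict. Across the labels the medians had the same sign, at 0.004 (TiO2-H male minus Sham female) and 0.021 (TiO2-H female minus Sham male).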

How the results depend on the processing

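Left unscaled, the arrays gave 13602 genes separated upward and 1082 downward, and limma called 6970 higher and 168 lower at an unadjusted p under 0.05. Among genes above the median level 3057 were separated upward and 3888 downward, and after quantile normalization as well 3193 and 3650. Over those genes limma gave 1653 and, with quantile normalization, 1682 higher at the unadjusted threshold, and 477 higher and 324 lower or, with quantile normalization, 328 and 190 at an adjusted p under 0.05. An intensity trend with robust priors gave 472 higher and 243 lower over all genes, with 2392 lower unadjusted, whereas the trend alone, chosen after seeing the data, gave 0 each way. Among the brighter genes the trend with robust priors gave 721 and 671, sex as labelled as a block 894 and 734, and sex crossed within TiO2-H as a block 63 and 5, with 968 lower unadjusted over all genes. Leaving out 1 array gave 19 to 365 higher and 0 to 172 lower brighter genes, 1759 to 2110 higher and 660 to 1201 lower at the unadjusted threshold, and 0 calls over all genes. With 1 array left in a group, that array was assumed to vary like the others.

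For lists the shift from the median of all genes is given. Across 930 list values, 679 moved by less than the spread between replicates, 234 by more, and 17 changed sign. The 679 include no scaling, the median of kept probes and the deposited values, which leave a shift the same by construction. Ribosomal proteins stood at -0.021 after quantile normalization, -0.059 among brighter genes, -0.017 with both, and -0.083 to -0.059 without 1 array. Glutamate receptors stood at 0.074 with normexp on the median signal and 0.081 to 0.158 without 1 array, interferon genes at -0.143 to -0.072 and the longest genes at 0.072 to 0.101. Erythroid genes stood at -0.062 (quantile), -0.042 (normexp), -0.027 (above background in at least 1 group), -0.081 (brighter genes, and every kept probe), -0.059 (mean of probes), -0.084 (quantile, brighter genes) and -0.086 to -0.041 without 1 array. Signs turned for heat shock genes (-0.006 above background in at least 1 group, -0.002 with every probe, -0.008 to 0.027 without 1 array), histone modifying enzymes (-0.001, -0.004 and -0.006 to 0.026 likewise), progenitors (-0.01 with every probe), oxidative phosphorylation (0.001 with quantile and brighter genes), BMP, TGF beta and Hedgehog genes (0.008 among brighter genes), metal handling (0.004 among brighter genes, 0.01 with quantile too), apoptosis (0.011 with normexp, 0.006 among brighter genes, -0.018 to 0.005 without 1 array), immediate early genes (0.007 with normexp) and noncoding RNAs (-0.011 among brighter genes, -0.005 with quantile too). The causes were not tested. The block by sex, as labelled or crossed, is the paired analysis of these arrays, since replicate numbers only name them.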
